A study of Mus musculus with 378 samples.

Results

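Interferon-stimulated genes are transcribed when a cell receives an interferon, and 35 of them were followed here in T cells taken from B16F10 melanomas of C57BL/6 mice. The genes were given as a fixed list of symbols, and all 35 were among the 23420 genes of the expression table. The series holds single cells and 1 population library (many cells lysed together) of CD8 T cells and of CD4 T cells, from mice labelled wild type (WT) or Il27ra knockout (KO), the gene of the specific receptor chain for the cytokine IL-27. All 4 groups came from tumour-bearing C57BL/6 mice, no group was free of tumour, and the labels name neither the age of the mice, their number nor the design of the knockout allele. Of 374 single-cell libraries, 76 with fewer than 1000 genes above 0 were left out, which left 67 WT and 74 KO cells of the CD8 type and 79 WT and 78 KO cells of the CD4 type. CD4 cells with Foxp3 above 0, the transcription factor that defines regulatory T cells, are called Foxp3-positive here, and there were 30 in the WT and 39 in the KO group. With 1 sample per genotype and cell type no difference below has a replicate check or a p-value, and every SD and interval covers the spread or the counting error over cells of that sample.

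Type I interferons signal through the receptor chains IFNAR1 and IFNAR2 and the kinases JAK1 and TYK2, which activate a complex with STAT2 and IRF9 that binds the interferon-stimulated response element (ISRE). Interferon gamma signals through IFNGR1, IFNGR2, JAK1 and JAK2, and its signal reaches genes through the gamma-activated site (GAS). IL-27 activates STAT3 in T cells, among other factors. Many of the genes respond to both kinds of interferon. The Ifit, Mx, Oas and Rsad2 antiviral genes are classical type I targets, while the guanylate-binding proteins (Gbp), the immunity-related GTPases, Irf1 and the class I antigen processing genes also respond strongly to interferon gamma.

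The motif letters of both elements were searched in the 250 bases before the RefSeq start of each gene (GRCm38.p6, the build also called mm10), to show how far the set shares them. RefSeq windows matched 25 of the 35 genes by symbol. The 10 without a window were Gbp4, Gbp6, Iigp1, Ly6a, Ly6e, Mx1, Ifi27l2a, Rtp4, Usp18 and Zbp1. An ISRE-type match (GAAANNGAAA on either strand) was present in 13 of the 25 genes, or 52%, against 3.46% of all 27025 genes with a window. A GAS-type match (TTCNNNGAA on either strand) was present in 9 of the 25, or 36%, against 8.13% of all genes. Both matches were held by 5 of the 25 genes and neither by 8. These are matches of letters, and no binding was measured. The stretches below show the arrangements that recur, for genes whose values are given later. They run 5′ to 3′ on the strand of the gene, and capitals mark the matched letters.
Isg15: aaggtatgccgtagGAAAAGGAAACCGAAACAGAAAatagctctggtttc
Ifit1: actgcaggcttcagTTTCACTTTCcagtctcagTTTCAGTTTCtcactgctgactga
Rsad2: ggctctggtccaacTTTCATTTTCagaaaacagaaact
Gbp7: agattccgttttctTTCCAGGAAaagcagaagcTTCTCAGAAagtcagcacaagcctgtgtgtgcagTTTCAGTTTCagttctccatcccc
Gbp3: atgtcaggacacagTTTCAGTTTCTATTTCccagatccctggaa
Irgm1: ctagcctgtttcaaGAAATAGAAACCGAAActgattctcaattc
Igtp: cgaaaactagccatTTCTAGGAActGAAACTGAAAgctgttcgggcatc
Irgm2: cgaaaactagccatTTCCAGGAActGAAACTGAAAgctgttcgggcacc
Irf1: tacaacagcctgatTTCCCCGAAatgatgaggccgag

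The Isg15 stretch (chr4:156200861-156200910, minus strand) holds 3 overlapping ISRE-type matches, and the first begins 78 bases before the gene start. Ifit1 (chr19:34640771-34640827, plus strand) has 2 separate ISRE-type matches on the opposite strand, and the nearer begins 85 bases before its start. In Rsad2 (chr12:26456549-26456586, minus strand) a single match begins 120 bases before the start. Gbp3 (chr3:142559985-142560028, plus strand) has 2 overlapping ISRE-type matches, whereas its neighbour Gbp7 (chr3:142530216-142530306, plus strand) has 2 GAS-type matches followed by 1 ISRE-type match. Irgm1 (chr11:48871421-48871464, minus strand) has 2 overlapping ISRE-type matches that begin 30 and 24 bases before the start. Igtp (chr11:58199497-58199545, plus strand) and Irgm2 (chr11:58214888-58214936, plus strand), neighbouring genes of the immunity-related GTPase family, share a GAS-type match directly followed by an ISRE-type match. Those 2 stretches are identical at 47 of 49 bases. Irf1 (chr11:53769910-53769946, plus strand) has a single GAS-type match 90 bases before its start and no ISRE-type match in this window.

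The label of the knockout was not mirrored by the RNA of the targeted gene. Il27ra was above 0 in 26 of 67 WT CD8 cells (38.8%, 95% exact binomial interval 27.1 to 51.5) and in 39 of 74 KO CD8 cells (52.7%, 40.7 to 64.4). In CD4 cells the shares were 48.1% (36.7 to 59.6, 38 of 79 cells) in WT and 52.6% (40.9 to 64, 41 of 78 cells) in KO. Il27ra RNA outside a deleted stretch would still be counted, so this checks neither label, and KO below means the libraries labelled so. The cell type labels were mirrored: Cd8a was above 0 in 83.6% and 94.6% of the WT and KO CD8 cells, and Cd4 in 79.7% and 89.7% of the CD4 cells. The median number of genes above 0 per cell was 2919 (WT) and 2797 (KO) for CD8, and 2307 (WT) and 2650.5 (KO) for CD4. B2m, or all of Cd3d, Cd3e and Cd3g, were at 0 in 11 WT and 3 KO cells of the CD8 type and in 7 WT and 1 KO of the CD4 type. Titles of WT CD4 libraries carry the part p3 where those of the other groups carry p2, so the genotype of CD4 cells and the cell type of WT cells cannot be told apart from that part of the title. Each group's titles also carry a word of their own (bird for KO CD4, cat for WT CD8, dog for WT CD4, rabbit for KO CD8). The meaning of that word is not given, and no comparison of genotype or cell type can be told apart from it.

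Levels differed widely between the genes, on the log2(FPKM + 1) scale, which is per length of transcript. Averaged over all kept cells of a group, the highest gene in WT CD4 was Shisa5 at 10.47 ± 2.98 (SD, n = 79 cells), and the lowest was Rsad2 at 0.33 ± 1.67. The gene in the middle of the 35 had a mean of 2.18 (WT) and 2.43 (KO) in CD8 cells and of 2.96 (WT) and 3.25 (KO) in CD4 cells. The number of the 35 genes found in at least 50% of a group's cells was 15 (WT) and 9 (KO) for CD8, and 13 (WT) and 16 (KO) for CD4. A group mean depends on how many cells held any RNA of the gene and on its level in them. In the plot of mean levels Psmb8, Ly6e and Shisa5 are bright in all groups, and most antiviral genes are dark in all single-cell groups. Tap1 and Psmb9 are darker in Foxp3-negative than in Foxp3-positive CD4 cells.

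**Figure D1:**
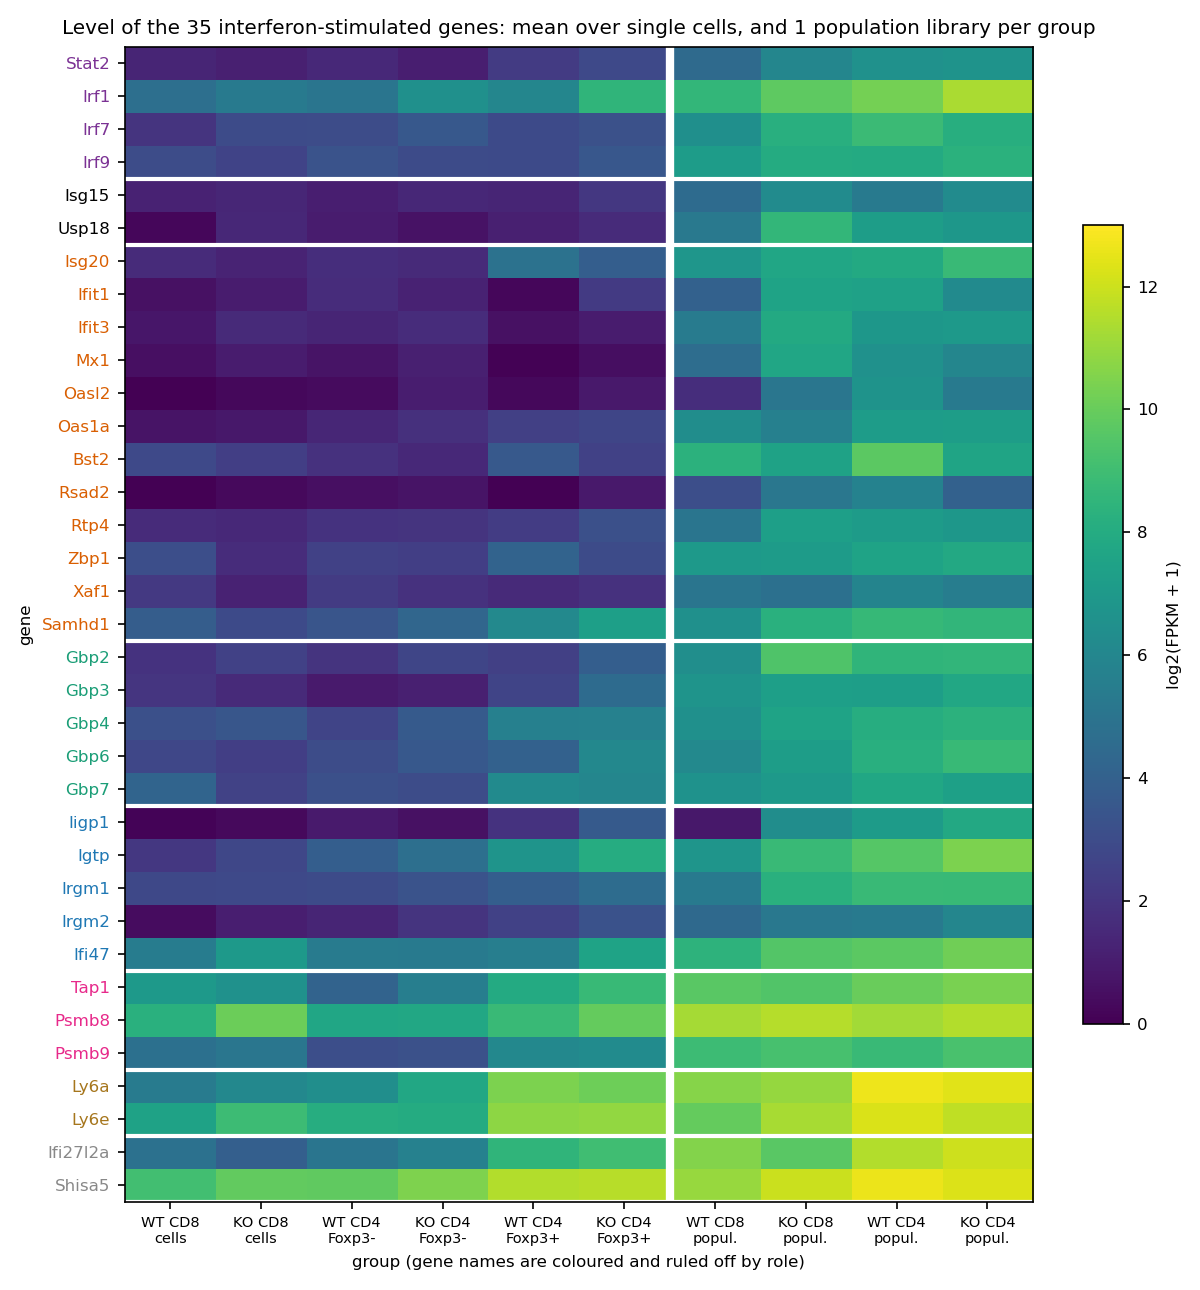
Mean log2(FPKM + 1) of each of the 35 genes (rows, ruled off by role) in the kept single cells of 6 classes, and its value in the 4 population libraries (columns). Antiviral genes such as Rsad2 and Oasl2 are near 0 in most single-cell classes, and Igtp, Gbp7 and Tap1 are brighter in Foxp3-positive than in Foxp3-negative cells.

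With all kept cells, Foxp3-positive cells held more RNA of most of the set than Foxp3-negative CD4 cells of the same genotype. The roles differed. Guanylate-binding proteins, immunity-related GTPases, antigen processing genes and Ly6 genes were all higher in Foxp3-positive cells in both genotypes. Among the antiviral effectors and sensors, Ifit3 and Mx1 were lower in Foxp3-positive cells in both genotypes. In WT cells 27 of the 35 genes were higher and 8 lower, with a median difference of 1.02 on the log2(FPKM + 1) scale against 0.38 over the 8588 genes above 0 in at least 10% of either class, of which 72.9% were higher. In KO cells 31 were higher and 4 lower (Irf7, Ifit3, Mx1 and Oasl2), with a median of 1.30 against 0.19 over 8786 genes, of which 63.7% were higher. Differences of at least 1 were reached by 18 genes of the set in WT, where 22.7% of all genes did so, and by 23 in KO, where 14.9% did. Differences of -1 or less were reached by 1 gene of the set in WT, Ifit1, against 1.73% of all genes, and by 0 in KO, against 2.99%. The sign was the same in both genotypes for 31 of the 35 genes, or 88.6%, and for 64.7% of 7894 genes overall. The 2 genotypes share no cell in this comparison. These values are from all kept cells, and in WT cells matched on genes above 0 the median turned to -0.69, as given below.

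**Figure D2:**
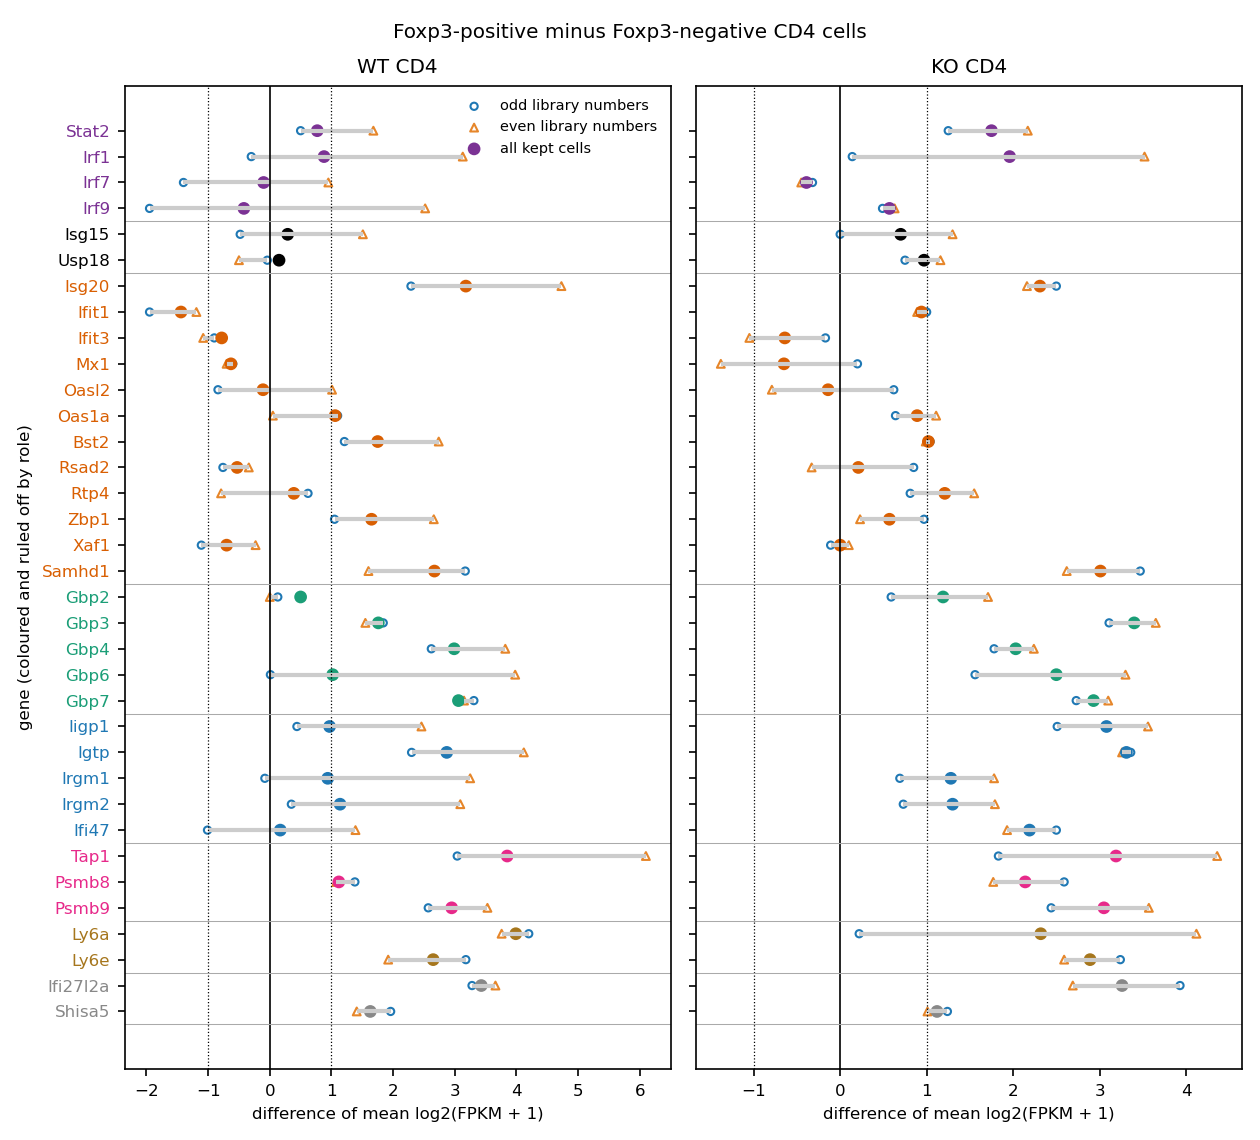
Difference of mean log2(FPKM + 1), Foxp3-positive minus Foxp3-negative, for each gene in WT CD4 (left) and KO CD4 cells (right), with all kept cells as filled points, odd library numbers as open circles and even numbers as open triangles. The filled points of Tap1, Ly6e and Samhd1 lie above 2 in both panels, and those of Ifit3 and Mx1 lie below 0 in both; a filled point can lie outside the range of its open points because the classes differ in their mix of odd and even numbers.

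Antigen processing genes gave some of the widest gaps. Tap1, a subunit of the peptide transporter that feeds class I molecules, ranged from 0 to 12.05 in WT Foxp3-positive cells with a median level of 9.14, and from 0 to 10.89 with a median of 2.33 in WT Foxp3-negative cells. Its mean level was 7.97 ± 3.93 (n = 30) against 4.12 ± 4.39 (n = 49), a difference of 3.85, and the classes overlapped over nearly the whole range. In KO cells the mean of Tap1 was 8.75 ± 2.91 (n = 39) against 5.55 ± 4.62 (n = 39), a difference of 3.19. Psmb9, a subunit of the immunoproteasome, differed by 2.95 in WT and 3.05 in KO cells. Psmb8, another such subunit, differed by 1.12 and 2.14.

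Both Ly6 genes, which encode lipid-anchored surface proteins, were detected in most Foxp3-positive cells, Ly6a in 27 of 30 WT and 34 of 39 KO cells. Ly6a, which encodes Sca-1, had a median level of 11.86 in WT Foxp3-positive and 9.80 in WT Foxp3-negative cells, and a difference in means of 3.99. In KO cells its difference was 2.32, made of 0.22 among odd and 4.12 among even library numbers. Ly6e was above 0 in all 30 WT and all 39 KO Foxp3-positive cells, with lowest, median and highest levels of 5.92, 11.30 and 12.23 in WT and 5.36, 11.11 and 12.54 in KO. In Foxp3-negative cells Ly6e was above 0 in 85.7% (WT) and 89.7% (KO), and the differences in means were 2.65 and 2.89. Shisa5, an endoplasmic reticulum protein with a role in apoptosis, was likewise above 0 in every Foxp3-positive cell of both genotypes, and its differences were 1.63 and 1.12. For Ifi27l2a they were 3.43 and 3.26.

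The interferon-induced GTPases, which attack the vacuoles of intracellular pathogens, were higher in Foxp3-positive cells for all 10 genes in both genotypes. Of all genes, 72.9% (WT) and 63.7% (KO) were higher. Igtp had lowest, median and highest levels of 0, 8.4 and 12.45 in WT Foxp3-positive cells and of 0, 0 and 11.82 in WT Foxp3-negative cells. Its mean difference was 2.87 in WT and 3.31 in KO cells. Gbp7 differed by 3.06 and 2.93, with 83.3% of WT and 84.6% of KO Foxp3-positive cells above 0 against 42.9% and 41% of Foxp3-negative cells. Gbp3 was above 0 in 26 of 39 KO Foxp3-positive cells (66.7%, interval 49.8 to 80.9) and in 8 of 39 KO Foxp3-negative cells (20.5%, 9.30 to 36.5), a mean difference of 3.40. In WT cells the Gbp3 difference was 1.76. Iigp1 differed by 3.08 in KO cells, where 19 of 39 Foxp3-positive cells (48.7%, 32.4 to 65.2) and 3 of 39 Foxp3-negative cells (7.69%, 1.62 to 20.9) were above 0, and by 0.97 in WT cells. Gbp4 differed by 2.99 in WT and 2.03 in KO, Gbp6 by 1.02 and 2.50, and Gbp2 by 0.50 and 1.19. Irgm1 differed by 0.94 and 1.28, Irgm2 by 1.14 and 1.30, and Ifi47 by 0.17 and 2.19. In WT cells the sign of Ifi47 held in 6 of 13 alternative settings, and those of Gbp6 and Irgm1 in 10. Those of Gbp4, Gbp7 and Igtp held in all 13. At least 5 of these 10 GTPase genes were above 0 in 21 of 30 WT Foxp3-positive cells (70%, 50.6 to 85.3) and in 15 of 49 WT Foxp3-negative cells (30.6%, 18.3 to 45.4). The KO counts were 33 of 39 (84.6%, 69.5 to 94.1) and 15 of 39 (38.5%, 23.4 to 55.4). With each cell thinned to 100000 estimated reads the shares were 60% against 31.8% in WT and 82.1% against 35.9% in KO. Close copies share sequence within the Gbp and immunity-related GTPase families, and their reads can be split between copies, so values of single genes in them are uncertain.

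Antiviral effectors and sensors had no common sign. Isg20, an RNA exonuclease, was above 0 in 53.3% of WT Foxp3-positive and 22.4% of WT Foxp3-negative cells and differed by 3.18 in mean level, and by 2.31 in KO cells. Samhd1, which depletes nucleotides, differed by 2.67 and 3.01. Zbp1, a nucleic acid sensor, differed by 1.65 and 0.57, and Bst2, which tethers virions, by 1.75 and 1.02. Ifit1, an RNA-binding translation inhibitor, was above 0 in 1 of 30 WT Foxp3-positive cells (3.33%, 0.0844 to 17.2) and in 10 of 49 WT Foxp3-negative cells (20.4%, 10.2 to 34.3), a difference in mean level of -1.44. In KO cells the sign was opposite, at 0.94, with 10 of 39 Foxp3-positive cells (25.6%, 13 to 42.1) above 0. Rsad2, which encodes viperin, was above 0 in 0 of 30 WT Foxp3-positive cells and in 6.12% of WT Foxp3-negative cells. That count of 0 allows a share of cells with any read of up to 10%. This limit is 3 counts over the 30 cells and not an exact interval. The dynamin-like GTPase gene Mx1 differed by -0.63 and -0.65, and Ifit3 by -0.78 and -0.64. Both rest on few cells. After thinning to 100000 estimated reads, Mx1 was above 0 in 0% of WT and 5.13% of KO Foxp3-positive cells. Its shares in Foxp3-negative cells were 9.09% and 15.4%. For Ifit3 they were 6.67% and 10.3% in Foxp3-positive and 15.9% and 17.9% in Foxp3-negative cells. The sign of Mx1 held in 12 of 13 settings in each genotype, and that of Ifit3 in all 13. Xaf1 differed by -0.70 in WT, Oasl2 by -0.11 and -0.14, Oas1a by 1.06 and 0.89, and Rtp4 by 0.39 and 1.21. Rsad2 and Oasl2 were above 0 in at most 6 cells of a class, and their differences rest on those cells.

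Transcription factors of the pathway gave mixed differences. Irf1 differed by 0.88 in WT and 1.96 in KO cells, Stat2 by 0.77 and 1.75, and Irf9 by -0.42 and 0.57. Irf7, which amplifies type I interferon production, differed by -0.10 and -0.39. For Isg15, a ubiquitin-like modifier, the differences were 0.29 and 0.70, and for Usp18, the protease that removes it, 0.15 and 0.97.

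Foxp3-negative cells held fewer genes, with medians of 2119 against 2822 in WT and 2500 against 2809 in KO cells, so the comparison was repeated with cells matched on genes above 0. With 20 WT cells of each class, the median over the set was -0.69, with 13 of the 35 genes higher, while in matched KO cells it was 1.17. In the matched WT cells the median was 0.66 for the guanylate-binding proteins (1.76 unmatched), 0.92 for antigen processing (2.95 unmatched) and 1.49 for the Ly6 genes (3.32 unmatched). It was -0.40 for the immunity-related GTPases (0.97 unmatched) and -1.0 for the antiviral group (0.14 unmatched). Over the 13 alternative settings, 24 genes in KO and 12 in WT stayed higher in Foxp3-positive cells in every one, and both counts include Tap1, Psmb9, Ly6a, Ly6e, Ifi27l2a, Shisa5, Igtp, Gbp4, Gbp7, Samhd1 and Isg20.

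CD8 cells held less RNA of most of the set than CD4 cells. Igtp, Ly6a and Ifi27l2a were lower in CD8 cells of both genotypes by more than 1 on the log2 scale, and immunity-related GTPases gave medians of -1.16 in WT and -1.56 in KO. With all kept cells the class I processing genes went the other way in most cases, with medians of 0.56 in WT and 0.32 in KO. In cells matched on genes above 0 these 2 medians turned to -0.51 and -0.39. Of the 35 genes, 27 were lower and 8 higher in WT CD8 cells, with a median of -0.48 where all 8961 genes had 0.33 and 76.7% of them were higher. In KO cells 28 were lower and 7 higher, with a median of -0.84 against 0.10 over 8473 genes, of which 59.2% were higher. Differences of -1 or less were reached by 9 genes of the set in WT, against 2.08% of all genes, and by 17 in KO, against 2.79%. Differences of at least 1 were reached by Tap1 alone in WT, against 14.1% of all genes, and by Psmb8 alone in KO, against 7.70%. The sign was the same in both genotypes for 28 of the 35 genes (80%) and for 60.8% of 8070 genes overall. Without the 47 WT and 41 KO cells (CD8) and the 50 WT and 48 KO cells (CD4) that held at least 3 markers of other cell types above 0, the medians were -0.15 in WT and -0.07 in KO. With a bar of 10 FPKM for those markers, chosen after seeing the data, they were -0.36 and -0.85. Tyr, a melanoma marker in that count, was above 0 in 94.9% to 98.5% of each group's cells. The neutrophil marker Csf3r and the dendritic cell marker Xcr1 were above 0 in 43.2% to 64.2%. Other markers of those types were above 0 in at most 32.4%, Mlana in at most 2.56% and S100a8 and S100a9 in 0 cells. Cells can thus reach 3 through Tyr, Csf3r and Xcr1 alone, and how many did was not tested.

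Igtp was above 0 in 28.4% of WT CD8 and 33.8% of KO CD8 cells, but in 55.7% (WT) and 71.8% (KO) of the CD4 cells, and its mean level was lower in CD8 cells by differences of -2.84 (WT) and -3.64 (KO). Iigp1 was above 0 in 2 of 67 WT CD8 cells (2.99%, 0.364 to 10.4) and 5 of 74 KO CD8 cells (6.76%, 2.23 to 15.1), against 15.2% and 28.2% of the CD4 cells. Ly6a had median levels of 4.94 and 4.71 in WT and KO CD8 cells and of 10.68 and 11.27 in CD4 cells, with mean differences of -2.53 and -2.88. Ifi27l2a differed by -1.50 in WT and -3.42 in KO, and Samhd1 by -0.62 and -2.90. Ly6e differed by -1.62 in WT and -0.51 in KO, and Gbp6 by -0.62 and -2.38. Shisa5 differed by -1.42 and -1.17, and Irf1 by -0.67 and -2.21.

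Tap1 was above 0 in 52 of 67 WT CD8 and 51 of 79 WT CD4 cells, with medians of 9.10 and 7.77 and a mean difference of 1.42, but in KO cells its difference was -0.56. Psmb8 was above 0 in 72 of 74 KO CD8 cells and 66 of 78 KO CD4 cells, and its difference was 1.22 in KO and 0.12 in WT. For Psmb9 the differences were 0.56 and 0.32, and for Bst2 0.35 and 0.40. Gbp3 differed by 0.38 in WT and -1.28 in KO, and Ifi47 by -0.03 and 0.56.

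The gap was also computed against each class of CD4 cells. Against Foxp3-negative CD4 cells alone, the median over the set was -0.20 in WT and -0.36 in KO, with 24 and 26 of the 35 genes lower in CD8 cells, where all genes had 0.48 and 0.20. Odd and even numbers gave -0.56 and 0.05 in WT and -0.04 and -0.48 in KO. Against Foxp3-positive cells the medians were -0.97 and -1.71, with 29 and 32 lower, where all genes had 0.11 and 0.00. Psmb8, Psmb9 and Tap1 were all higher in CD8 than in Foxp3-negative CD4 cells, by 0.55, 1.68 and 2.88 in WT and by 2.29, 1.85 and 1.04 in KO, and Igtp was lower by differences of -1.75 and -1.99.

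Per cell, the mean of log2(FPKM + 1) over the 35 genes, called the score here, overlapped between all groups. In CD8 cells its lowest, median and highest values were 0.03, 3.31 and 5.45 (WT) and 0.58, 2.77 and 7.57 (KO). In CD4 cells they were 0.12, 3.22 and 8.95 (WT) and 0.22, 4.20 and 10.23 (KO). Medians were 3.94 in WT and 4.75 in KO Foxp3-positive cells, and 2.64 and 2.78 in Foxp3-negative cells. Scores above 6 were found in 0 of 67 WT and 5 of 74 KO cells of the CD8 type, and in 8 of 79 WT and 12 of 78 KO cells of the CD4 type. Across cells the score went with the number of genes above 0, with Spearman's rho of 0.76 (WT) and 0.46 (KO) for CD8 and of 0.74 (WT) and 0.63 (KO) for CD4, and both measures share the library and its depth. In the plot of scores, the WT CD8 column ends below 6, while the CD4 columns reach higher.

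**Figure D3:**
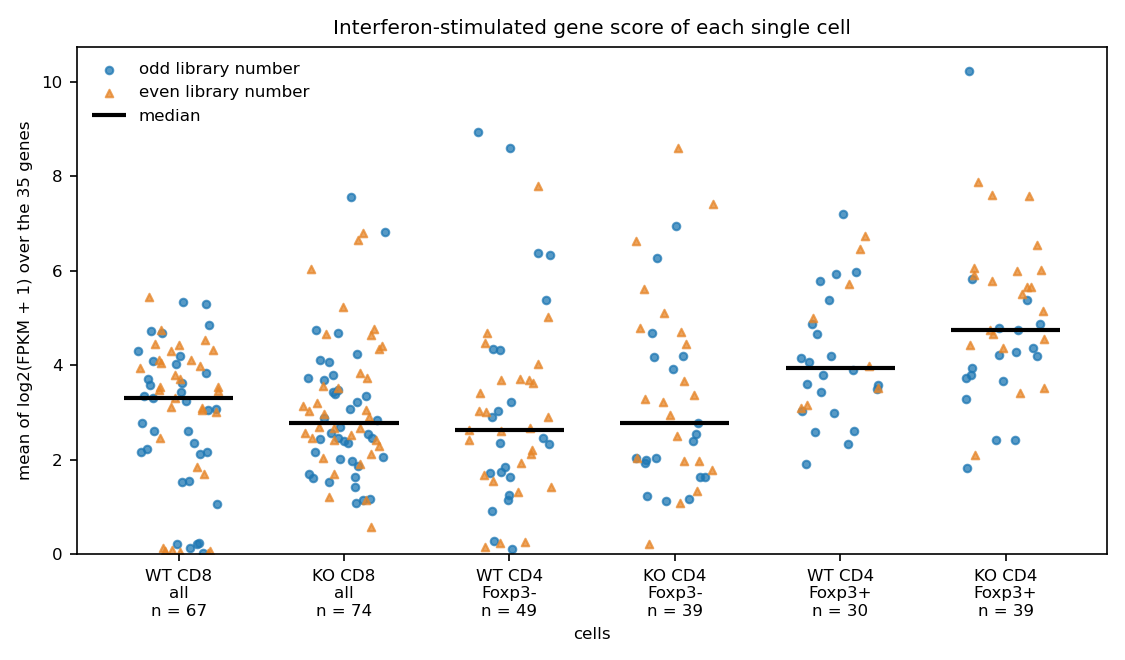
Mean log2(FPKM + 1) over the 35 genes in each kept single cell (points, circles for odd and triangles for even library numbers) by group and Foxp3 class, with the median as a bar. Medians are 3.94 and 4.75 in the Foxp3-positive columns and between 2.64 and 3.31 in the others, and all columns overlap.

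Most cells held few antiviral genes. Of 10 genes typical of the type I response (Isg15, Usp18, Ifit1, Ifit3, Mx1, Oasl2, Rsad2, Irf7, Rtp4 and Oas1a), the median cell held 1 above 0 in each of the 4 groups. In CD8 cells at least 5 were above 0 in 2 of 67 WT (2.99%, 0.364 to 10.4) and 10 of 74 KO cells (13.5%, 6.68 to 23.5). In CD4 cells the counts were 8 of 79 WT (10.1%, 4.47 to 19) and 13 of 78 KO cells (16.7%, 9.18 to 26.8). After thinning to 100000 estimated reads the counts were 0 of 56, 7 of 73, 8 of 74 and 12 of 78 cells. In WT CD4 cells 7 of the 8 were Foxp3-negative, and in KO CD4 cells 7 of the 13. The highest scores were 10.23 in a Foxp3-positive KO CD4 cell with 33 of the 35 genes above 0, and 8.95 and 8.61 in 2 Foxp3-negative WT CD4 cells with 34 each. The first of these held 13 of the 37 markers of other cell types above 0, and the other two held 3 and 4, against a median of 3 in each group. Across cells the score and the number of those markers above 0 had Spearman's rho of 0.02 (WT) and 0.11 (KO) for CD8 and of 0.24 (WT) and 0.39 (KO) for CD4, and both share the depth of the library.

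Genes of the set were correlated within groups to a modest degree. Given the number of genes above 0 per cell, the mean within-group partial Spearman's rho over the 595 pairs had a median of 0.14. The highest pairs were Ly6e with Ly6a at 0.41, Ifit3 with Ifit1 at 0.40 and Rtp4 with Ifit1 at 0.39. Outside the set, the genes with the highest mean rho with the score, among 3845 genes found in 20% or more of each group's cells, included B2m at 0.68, and Actg1 and Glrx at 0.54 each. Actr3 followed at 0.53, and Gm5177, Pkm, Phf11a, Tmbim6 and Cfl1 at 0.52 each. With the number of genes above 0 held constant, B2m had 0.48, Gbp9 0.47, and Tgtp2 and Parp14 0.46. These values are descriptions over 67 to 79 cells per group that share a library preparation.

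Between genotypes, CD8 cells showed no common direction for the set. Psmb8, Ifi47 and Ly6e were higher in cells labelled KO, and Gbp7 and Zbp1 were lower. Of the 35 genes, 22 were higher and 13 lower in KO CD8 cells, with a median difference of 0.26 against -0.08 over 9031 genes, of which 42.9% were higher. Differences of at least 1 were reached by 5 genes of the set, against 5.94% of all genes, and of -1 or less by 2, against 3.82%. The median was -0.26 among cells with at least 2000 genes above 0, -0.28 without cells lacking B2m or Cd3 genes and -0.34 after thinning, but 0.25 in cells matched on genes above 0. Fewer than 100000 estimated reads were held by 11 WT and 1 KO CD8 cells.

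Psmb8 had lowest, median and highest levels of 0, 10.30 and 12.47 in WT and 0, 10.59 and 12.89 in KO CD8 cells, and was above 0 in 53 of 67 and 72 of 74 cells. Its mean was 8.26 ± 4.44 against 10.08 ± 2.38, a difference of 1.82, which came from the cells at 0 while the medians were close. Ifi47, an immunity-related GTPase, had medians of 7.87 and 8.87 and a mean difference of 1.54. Ly6e had medians of 9.26 and 10.08 and a mean difference of 1.42. Usp18 was above 0 in 4 of 67 WT cells (5.97%, 1.65 to 14.6) and 13 of 74 KO cells (17.6%, 9.70 to 28.2), and differed by 1.21. Irf7 differed by 1.01, with 0.18 among odd and 1.92 among even library numbers. Gbp7 was above 0 in 42 of 67 WT and 35 of 74 KO cells, with medians of 5.45 and 0 and a mean difference of -1.64. Zbp1 differed by -1.48, made of -2.46 among odd and -0.39 among even numbers. Samhd1, Xaf1 and Ifi27l2a differed by -0.93 each. The signs for Psmb8, Ifi47, Usp18, Irf7, Gbp7, Samhd1 and Xaf1 held in all 12 alternative settings on single cells. Those for Ly6e and Zbp1 held in 11 and that for Ifi27l2a in 10. The lowest value of Ly6e was -0.0, and the highest of Zbp1 was 0.25.

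The other genes of the set lay between -0.49 (Bst2) and 0.85 (Shisa5) in CD8 cells. Ifit1, Ifit3 and Mx1 were above 0 in 7.46%, 11.9% and 11.9% of WT cells and in 16.2%, 20.3% and 24.3% of KO cells. Their mean differences were 0.42, 0.75 and 0.47, positive in all 12 settings. Of the 12 antiviral effectors and sensors, which include these 3, 6 were higher and 6 lower in KO CD8 cells. Their median was 0.04 and kept its sign in 6 of the 12 settings.

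In CD4 cells 31 of the 35 genes were higher in the KO group, but odd and even library numbers disagreed. Irf1, Tap1 and Igtp were higher in KO cells among odd and among even numbers, and Samhd1, Ifi27l2a and Psmb8 were higher among even numbers and lower among odd ones. The median difference was 0.59 against 0.17 over 8176 genes, of which 66.7% were higher. It was -0.09 among odd numbers (16 genes higher) and 1.18 among even numbers (33 higher), and 16 of the 35 genes had the same sign in both, against 57% of all genes. Differences of at least 1 were reached by 8 genes of the set, against 7.73% of all genes, and of -1 or less by 0, against 0.342%. With cells matched on genes above 0 the median was 0.00, with 18 genes higher and 17 lower. The sign was the same in CD8 and CD4 cells for 26 of the 35 genes (74.3%), against 52.6% of 7843 genes overall.

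**Figure D4:**
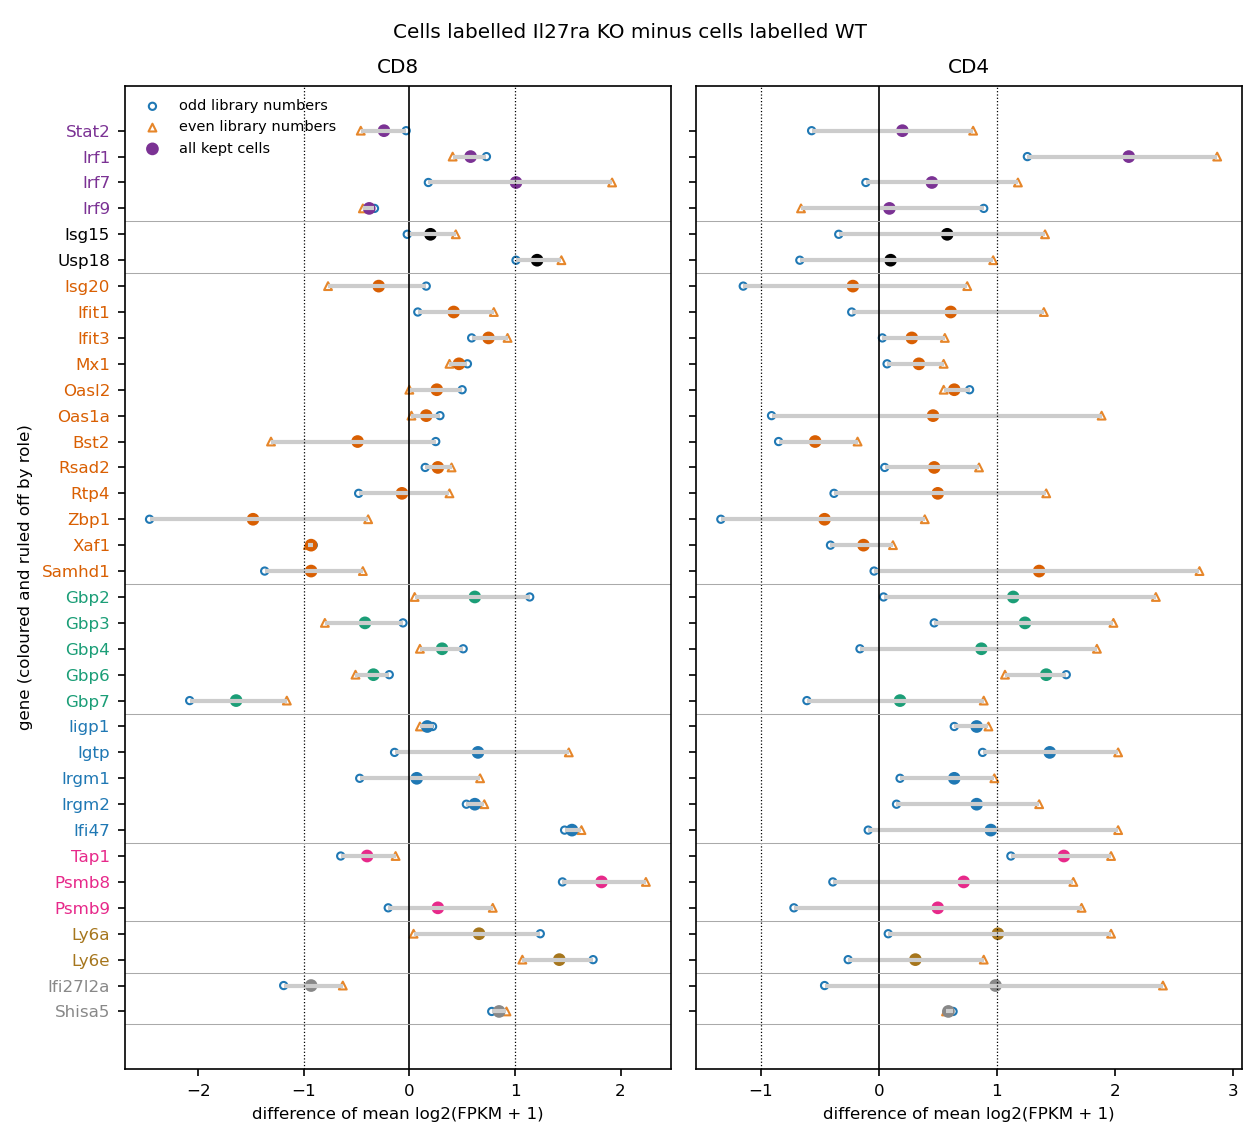
Difference of mean log2(FPKM + 1), cells labelled KO minus cells labelled WT, for each gene in CD8 (left) and CD4 cells (right), with all kept cells as filled points, odd library numbers as open circles and even numbers as open triangles. In CD4 cells the triangles lie mostly right of the circles (medians 1.18 and -0.09), and Irf1 lies at 2.12 with both open points above 1.

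Irf1, an early interferon gamma target, had lowest, median and highest levels of 0, 7.41 and 12.04 in WT and 0, 8.84 and 13.33 in KO CD4 cells. Its mean was 5.41 ± 4.87 (n = 79) against 7.53 ± 4.65 (n = 78), a difference of 2.12, with 1.26 among odd and 2.87 among even numbers, and 1.06 in the population libraries. Tap1 had medians of 7.77 and 9.07 and a mean difference of 1.57, with 1.12 among odd and 1.97 among even numbers. Igtp had medians of 5.67 and 8.53 and a mean difference of 1.45, with 0.88 and 2.03. Gbp6 differed by 1.42 and Gbp3 by 1.24, and Gbp2 by 1.14. Samhd1 differed by 1.36, made of -0.04 among odd and 2.72 among even numbers, and Ly6a by 1.01, made of 0.08 and 1.97. The 4 genes lower in KO CD4 cells were Bst2 at -0.54, Zbp1 at -0.46, Isg20 at -0.22 and Xaf1 at -0.13. Bst2 was lower in the population libraries too, at -2.11. Foxp3-positive cells were 30 of 79 WT and 39 of 78 KO cells. Within Foxp3-positive cells the median over the set was 0.63 (30 genes higher), against 0.04 over all genes. Within Foxp3-negative cells it was 0.30 (23 higher), against 0.23 over all genes, and -0.34 among odd and 0.84 among even numbers.

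The differences were also set beside the ISRE-type match. The 13 genes with an ISRE-type match and the 12 without had median differences of 0.20 and 0.27 in KO minus WT CD8 cells, and 0.58 and 0.61 in KO minus WT CD4 cells. For Foxp3-positive minus Foxp3-negative cells they were 0.94 and 1.00 in WT and 1.19 and 2.05 in KO. For CD8 minus CD4 they were -0.29 and -0.25 in WT and -0.84 and -0.61 in KO.

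The population libraries gave other differences than the single cells, and they held RNA of other cell types. KO minus WT had a median of 1.14 in CD8 (30 genes higher, 5 lower) and 0.13 in CD4 (20 higher, 15 lower), where all genes had 0.04 and -0.09. CD8 minus CD4 had -1.62 in WT (33 lower) and -0.42 in KO (25 lower), where all genes had -0.06 and 0.09. The WT CD8 library had the lowest value of the 4 for 28 of the 35 genes. Iigp1 stood at 0.84 there against 6.35 for KO CD8 and 7.15 and 7.83 for WT and KO CD4, and Ifit1 at 4.03 against 7.54, 7.45 and 6.21. In the same libraries the median of the class II antigen presentation genes, which T cells of mice do not make in quantity, was 5.36 (WT) and 11.80 (KO) for CD8 and 10.52 (WT) and 10.55 (KO) for CD4. In that order the macrophage list stood at 0.94, 5.03, 5.18 and 3.03, and the melanoma list at 10.51, 0.82, 2.90 and 0. The part of those cells in the interferon-stimulated values was not tested. In such libraries fewer cells of a type and less RNA per cell cannot be told apart.

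Other genes of the pathway were described from lists chosen with earlier results of these data known. Of 60 further interferon-induced genes in the table, 49 were above 0 in at least 10% of either group in the KO minus WT comparison of CD8 cells, with 31 higher, 18 lower and a median of 0.29. In CD4 cells 53 were, with 41 higher, 12 lower and a median of 0.54. Slfn2 and B2m led in CD8 cells with differences of 2.51 and 1.90, and Phf11b and Gbp10 were lowest at -1.11 and -1.07. B2m was above 0 in 88.1% of WT and 100% of KO CD8 cells, and Slfn2 in 56.7% and 83.8%. Cells at 0 thus entered both differences. Psmb10 and Psme1 led in CD4 cells with 2.01 and 1.61, and Aim2 and Herc6 were lowest at -0.70 and -0.35. The share of all genes higher in KO cells was 42.9% in CD8 and 66.7% in CD4. Of 9 receptors and kinases, 7 were higher in KO CD8 and 6 in KO CD4 cells, with Ifngr1 at 2.01 and Ifnar1 at -0.61 in CD8, and Jak2 at 0.77 and Tyk2 and Ifngr2 at -0.28 in CD4. Of the signal transducers and feedback genes, Socs3 had the highest difference in CD8 cells at 2.04 and Socs1 in CD4 cells at 1.83. Other genes of these lists in CD8 cells were Il27ra at 1.68, Tyk2 at -0.59, Ptpn6 at 1.73 and Stat3 at 0.02, and in CD4 cells Ifnar2 at 0.56, Pias1 at -0.45 and Stat3 at 0.30. Of the 10 nucleic acid sensing genes detected, Ddx58 at 1.36 and Irf8 at -1.26 were the extremes in CD8 cells, and Irf8 at 0.75 and Irf3 at -0.46 in CD4 cells. Next to them were Mavs at 0.51 and Mb21d1 at -0.92 in CD8 cells, and Tbk1 at 0.66 and Mb21d1 at -0.08 in CD4 cells. Among 8 genes for interferons and the IL-27 subunits, Ifng was the one above 0 in at least 10% of the CD8 cells, in 28.4% of WT and 23% of KO cells, against 11.4% and 11.5% of CD4 cells. Its KO minus WT differences were -0.54 in CD8 and 0.09 in CD4 cells, and that of Ebi3, also detected in CD4 cells, was 0.02.

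**Figure D5:**
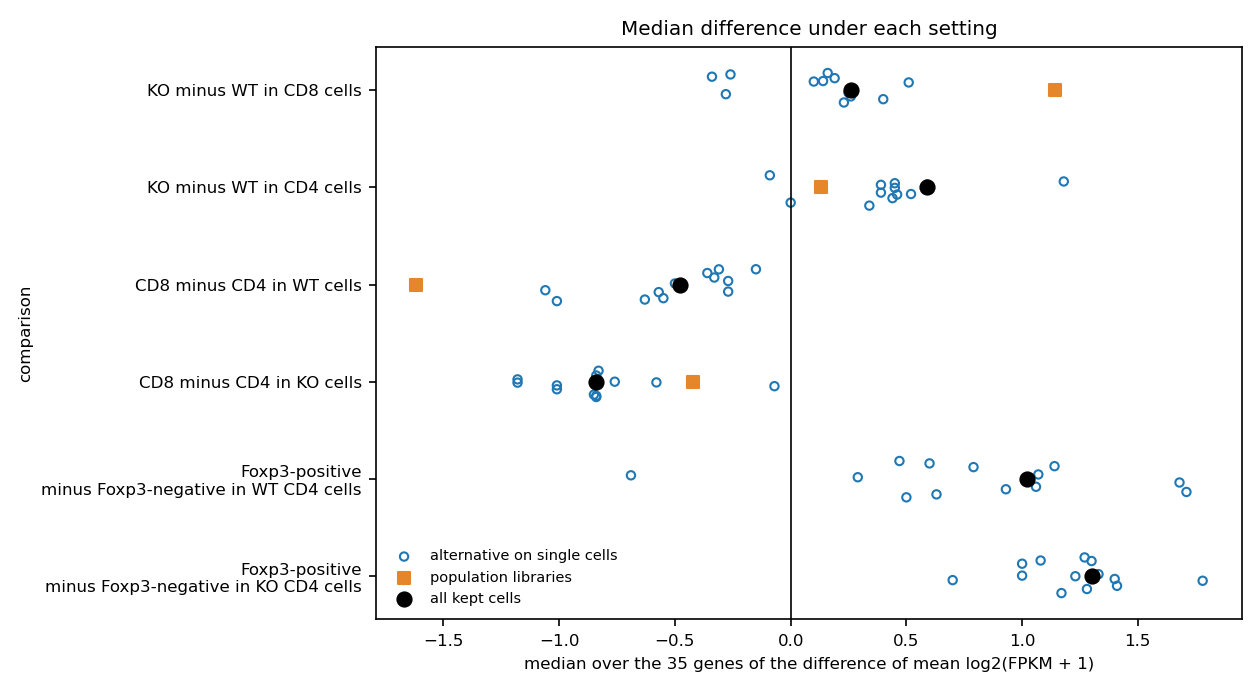
Median over the 35 genes of the difference of mean log2(FPKM + 1) for the 6 comparisons (rows), with all kept cells as black points, alternative settings on single cells as open points and the population libraries as squares. The open points of the KO Foxp3 comparison stay at 0.70 or above and those of CD8 minus CD4 stay below 0, while those of KO minus WT lie on both sides of 0.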

How the data were processed

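Single T cells and 1 population library per group were profiled by Smart-seq2, a full-length cDNA method with PCR and no molecular identifiers. The authors deposited 1 table of TMM-normalized FPKM values (fragments per kilobase of transcript per 1000000 fragments, scaled between libraries). The submitters' processing notes name Bowtie, RSEM and the mm10 build; tool versions are not given in the sources used here. Each of the 378 table columns was assigned to samples by title, and 0 stayed unmapped.

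Cells with at least 1000 genes above 0 were kept. No doublet caller was run. Values are log2(FPKM + 1), and a difference is one of means over cells. With 1 sample per group there is no test, and intervals are exact (Clopper-Pearson, 95%) and cover counting error only. A gene was detected if above 0 in at least 10% of either group's cells. Medians over the set use all 35 genes. FPKM hold no depth, so reads were estimated from the steps of low values. A median of 62.9% of those lay within 0.1 of a whole read, so estimates are approximate. They served to thin cells to 100000 reads. Matching paired cells of both groups within 10% of genes above 0. The calculations were checked on simulated data.

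The 35 genes, the roles, the 10 antiviral and 10 GTPase genes, the pathway and marker lists and the rules were chosen with earlier results of these data known. All 35 genes were eligible to be named, with values in full for the 4 furthest from 0 either way in each comparison and for at least 1 gene of each role. Outside the set, the extremes of each pathway list between genotypes, the 10 genes with the highest mean rho with the score, Il27ra, Foxp3, Cd4, Cd8a and Ifng were named, apart from 1 gene that is not reported here. Further genes, such as those after partial correlation, were chosen after their values were seen. Python 3.11.15, numpy 2.4.6, pandas 2.3.3, scipy 1.17.1 and matplotlib 3.10.9 were used. Promoter windows came from RefSeq.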

Additional observations from a re-analysis of the deposited data

Results flagged for a closer look

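Of the 76 single-cell libraries left out for holding fewer than 1000 genes above 0, 31 had at least 1 of the 35 interferon-stimulated genes above 0, a signal in libraries that no comparison used. The median left-out library had 0 of the 35 genes above 0 and the highest had 7. Shisa5 was above 0 in 5 of them (6.58%).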

How the results depend on the processing

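Values are medians over the 35 genes of the difference in mean log2(FPKM + 1). The 6 comparisons kept their sign in every setting run except as given here. KO minus WT in CD8 cells, 0.26 with all kept cells, was -0.26 with at least 2000 genes above 0, -0.28 without cells lacking B2m or Cd3 genes and -0.34 after thinning. Odd library numbers gave 0.16, even ones 0.10; it was 0.14 with a pseudocount of 10, 0.51 as log2 of the mean FPKM, 0.40 without cells above 0 for 3 markers of other cell types and 1.14 in the population libraries. KO minus WT in CD4 cells, 0.59, was -0.09 among odd and 1.18 among even numbers, 0.00 in matched cells, 0.39 with at least 2000 genes and with a pseudocount of 10, 0.34 without cells lacking B2m or Cd3 genes and 0.13 in the population. CD8 minus CD4 in WT cells, -0.48, was -0.27 among even numbers and after thinning, -1.01 as log2 of the mean FPKM, -1.06 in matched cells, -0.31 without cells lacking B2m or Cd3 genes, -0.15 without cells above 0 for 3 markers and -1.62 in the population. In KO cells, -0.84, it was -0.07 without cells above 0 for 3 markers and -0.42 in the population. Among those markers, Tyr was above 0 in 94.9% to 98.5% of each group's cells. Foxp3-positive minus Foxp3-negative in WT cells, 1.02, was -0.69 in matched cells, 0.50 among odd and 1.68 among even numbers, 0.29 with at least 2000 genes, 0.47 as log2 of the mean FPKM, 0.60 with a pseudocount of 10, 1.71 without cells above 0 for 3 markers and 0.63 without cells lacking B2m or Cd3 genes. In KO cells, 1.30, it was 0.70 as log2 of the mean FPKM. The WT value of 1.71 rests on 4 Foxp3-positive and 25 Foxp3-negative cells, and that of 1.68 on 8 and 27. The cause of each shift was not tested. The other settings (Foxp3 above 10 FPKM, FPKM rescaled to 1000000, detected genes only) moved no median by more than 1.5 times, nor did the bar of 10 FPKM for the markers of other cell types, which was chosen after seeing the data. With 1 sample per group no setting could leave out a replicate. No paired analysis was possible because the numbers in the titles do not repeat between groups and the results come from no test. FPKM without counts and 17 cells too shallow to thin limit what low genes can show.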

Other observations

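Cells were also described by the RNA of Il27ra and Ifng, with the score as the mean log2(FPKM + 1) over the 35 interferon-stimulated genes. In KO CD8 cells the median score was 3.15 in the 39 cells with Il27ra above 0 and 2.43 in the 35 cells at 0. In WT CD8 cells it was 3.82 in 26 and 2.60 in 41 cells, with medians of 3685 and 2553 genes above 0. In CD4 cells it was 3.56 against 3.03 in WT and 4.21 against 4.18 in KO. All 5 KO CD8 cells with a score above 6 had Il27ra above 0, and no WT CD8 cell scored that high. The CD4 groups were split. For WT, 3 such cells had Il27ra above 0 and 5 were at 0. For KO, the counts were 8 and 4.

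Ifng above 0 went with a median score of 4.07 against 3.04 in WT CD4 cells and of 2.04 against 4.21 in KO CD4 cells, over 9 cells with Ifng in each group. In CD8 cells the medians were 3.80 against 3.07 in WT (19 and 48 cells) and 2.87 against 2.70 in KO (17 and 57 cells). Ebi3, a subunit of IL-27 and IL-35, was higher in Foxp3-positive than Foxp3-negative cells, by 2.43 in WT and 1.55 in KO on the log2 scale. Of all genes, 22.7% (WT) and 14.9% (KO) were higher by at least 1. Ebi3 was above 0 in 20.3% of WT and 17.9% of KO CD4 cells, and its difference was not repeated in matched cells.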
